A study of Mus musculus with 9 samples.

Results

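The RNA polymerase I, II and III subunit genes are described here in mouse CD8+ T cells. They were taken as the protein-coding genes of the counts table whose mouse symbol begins with Polr1, Polr2 or Polr3, which gave 28 of 53679 gene IDs. Of these, 3 encode subunits of polymerase I alone (Polr1a, Polr1b and Polr1e), 8 of polymerase II alone (Polr2a, Polr2b, Polr2c, Polr2d, Polr2g, Polr2i, Polr2j and Polr2m) and 10 of polymerase III alone (among them Polr3a, Polr3b, Polr3c, Polr3d, Polr3e, Polr3f, Polr3g, Polr3gl and Polr3k). A further 2 are shared by polymerases I and III (Polr1c and Polr1d) and 5 by all 3 enzymes (Polr2e, Polr2f, Polr2h, Polr2k and Polr2l). The pseudogene Polr2k-ps carries a matching symbol but is not protein-coding and held 0 to 2 counts per library. Another 4 subunits appear in the table under older symbols, which the choice by symbol does not reach: Twistnb, Cd3eap and Znrd1 of polymerase I and Crcp of polymerase III. They are described beside the members.

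CD8+ T cells from 3 C57BL/6 mice, numbered 715, 725 and 728, were activated for 3 days before total RNA was taken for sequencing. Each mouse gave 3 libraries: untreated Tc0 cells, Tc0 cells with coenzyme A (CoA) as the agent, and untreated Tc22 cells. Tc22 is the field's name for CD8+ T cells that secrete interleukin-22, and Tc0 for those activated with no polarising cytokine. CoA is the cell's carrier of acyl groups. Neither the CoA dose nor the cytokines of either culture appear in the sources used here. The untreated cells are described both as untreated and as given vehicle. The 9 libraries thus form 3 groups of 3, matched by mouse, and values below are listed in the order of mice 715, 725 and 728. A library is named by its group and mouse, such as Tc0 728 or CoA 725.

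Polymerase I works in the nucleolus and makes the precursor of the large ribosomal RNAs. Polymerase II makes messenger RNA and most other noncoding RNA. Polymerase III makes transfer RNAs, the smallest ribosomal RNA and other short RNAs. Each enzyme has a pair of large catalytic subunits around the active site, a small assembly platform, and a stalk. Polymerases I and III also carry built-in subunits that resemble the general initiation factors of polymerase II. T cells enlarge and make new ribosomes when they are activated, and this draws on polymerases I and III.

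The promoters of the 3 polymerase I genes and of Polr3k are shown because the 3 polymerase I genes moved together and Polr3k was the only member called lower with CoA (values below). Each line gives the 250 bases before the start site, 5′ to 3′ on the gene's strand, from RefSeq on GRCm38.p6. Capitals mark letters that match one of 5 promoter motifs on either strand: the E-box CACGTG (bound by factors such as MYC), the ETS motif CCGGAAG, the sequence CCAAT, the GC box GGGCGG and the TATA box TATAAA. No motifs overlap in these windows.
Polr1a, chr6:71908803-71909052, plus strand: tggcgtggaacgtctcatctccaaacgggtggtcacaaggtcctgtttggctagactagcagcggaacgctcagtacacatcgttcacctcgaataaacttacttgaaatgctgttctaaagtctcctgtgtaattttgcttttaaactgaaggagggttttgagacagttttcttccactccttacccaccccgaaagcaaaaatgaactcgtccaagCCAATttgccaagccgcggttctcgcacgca
Polr1b, chr2:129100746-129100995, plus strand: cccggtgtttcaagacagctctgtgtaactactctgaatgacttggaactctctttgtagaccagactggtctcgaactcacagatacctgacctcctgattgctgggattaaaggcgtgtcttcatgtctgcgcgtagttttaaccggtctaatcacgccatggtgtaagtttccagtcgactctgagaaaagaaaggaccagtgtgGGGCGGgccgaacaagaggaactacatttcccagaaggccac
Polr1e, chr4:45018359-45018608, plus strand: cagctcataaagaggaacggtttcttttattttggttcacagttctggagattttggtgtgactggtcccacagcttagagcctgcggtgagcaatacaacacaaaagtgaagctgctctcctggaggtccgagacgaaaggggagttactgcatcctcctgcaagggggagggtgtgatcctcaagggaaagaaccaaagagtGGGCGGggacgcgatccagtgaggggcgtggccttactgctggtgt
Polr3k, chr2:181864110-181864359, plus strand: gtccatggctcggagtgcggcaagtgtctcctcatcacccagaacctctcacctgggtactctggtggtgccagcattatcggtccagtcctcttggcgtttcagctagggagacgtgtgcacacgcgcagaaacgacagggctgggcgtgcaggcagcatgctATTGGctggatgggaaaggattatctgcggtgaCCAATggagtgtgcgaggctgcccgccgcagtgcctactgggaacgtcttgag
The Polr1a window held a CCAAT at 31 bases before the start. The Polr1b and Polr1e windows held a GC box at 42 and 46 bases before it. Polr3k had CCAAT at 53 bases before its start and the same motif on the other strand, ATTGG, at 86 bases. These windows held no E-box and no TATAAA. In windows of 300 bases around the start, the ETS motif stood in the window of Polr1e as well.

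Windows of 300 bases were found for 22 of the 28 members, and the same windows of 27025 genes served as background. The GC box stood in 14 of the 22 (63.6%, against 38.2% of all genes) and the ETS motif in 7 (31.8%, against 9.93%). CCAAT stood in 7 (31.8%, against 41.1%), the E-box in 4 (18.2%, against 8.09%) and TATAAA in 2 (9.09%, against 15.7%). The 4 with an E-box were Polr2h, Polr3c, Polr3e and Polr3gl. These are matches of letters only.

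Library totals ran from 21841034 to 36254631 counts, and the 28 members together held 0.137% to 0.192% of them. The lowest count of a member in a library was 73 (Polr2i) and the highest 7896 (Polr2b), so all 28 passed the filter on low counts. Values are in CPM, counts scaled to a common library size, with sizes adjusted by the TMM method. Log2 fold changes are given ± SE. Tc0 728 stood apart from the other Tc0 libraries: it had the lowest mitochondrial share of the 9 (2.003%, against up to 3.997%) and the highest histone share (0.667%, against 0.140% at the lowest). Tc22 725 had nearly the same mitochondrial share (2.007%). Mouse 728 also had the highest histone share with CoA (0.364%) and in Tc22 (0.491%). Among the members, Polr2f and Polr2e were 3.11 and 2.63 times as high in Tc0 728 as in the mean of the other 2 Tc0 libraries. Values without this library are given below for Polr2a, Polr2d, Polr2e, Polr2f, Polr2j, Polr2l and Polr3k.

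The cells carried the CD8 T cell markers, which summed to 2098 to 2566 CPM in Tc0, 1609 to 2044 CPM with CoA and 1989.5 to 2443 CPM in Tc22 libraries over 8 genes. Of these 8, 5 were lower with CoA (Cd3d, Cd3e, Cd3g, Trac and Cd2) and the same number higher in Tc22 than in CoA libraries. Natural killer markers summed to 5.70 to 18.5 CPM in Tc0 and 46.7 to 97.6 CPM with CoA and 20.6 to 39.7 CPM in Tc22 libraries. Klrc1, a receptor that activated CD8+ T cells also carry, made up most of that sum and was higher with CoA (from a mean of 10.5 to 72.7 CPM, log2 2.88 ± 0.17, adjusted p = 7.33e-05), whereas Klra7 was lower (log2 -2.10 ± 0.57, adjusted p = 0.0260). Of the 5 natural killer genes, Ncr1, Klrb1c and Klra8 stayed under 1 CPM in all 9 libraries. In Tc22 libraries Klrc1 and Klra7 were called higher than in Tc0 (log2 1.34 ± 0.16, adjusted p = 0.00300, and log2 1.78 ± 0.40, adjusted p = 0.0428, by edgeR). Against CoA, Klrc1 was called lower in Tc22, and Klra7 and Klrb1c were called higher. Over 6 genes, macrophage markers summed to at most 15.3 CPM in any library and dendritic cell markers to at most 9.40 CPM, both in a CoA library. Of the macrophage markers, 2 were called higher with CoA (Lyz2, log2 1.15 ± 0.25, adjusted p = 0.0117, and Cd14, log2 2.24 ± 0.51, adjusted p = 0.0134) and 3 lower in Tc22 than with CoA (Lyz2, Cd14 and Csf1r). Cd68 went the other way and was called higher in Tc22 than with CoA (log2 0.72 ± 0.21, adjusted p = 0.0271 by edgeR). The dendritic cell list had Zbtb46 higher with CoA (log2 1.06 ± 0.24, adjusted p = 0.0139) and lower in Tc22 than with CoA. Its other 5 genes stayed under 1 CPM. B cell markers summed to at most 11.8 CPM, with Ms4a1, Cd79a, Pax5 and Blk under 1 CPM throughout. The granulocyte and mast cell markers summed to at most 3.04 CPM, with Elane and S100a9 at 0. Of these, Mcpt8 was higher with CoA (log2 2.77 ± 0.45, adjusted p = 0.00431), and Mcpt8 and Cpa3 were lower in Tc22 than with CoA. CD4 and regulatory T cell markers ran from 8.67 to 16.3 CPM over the 9 libraries. Cd40lg was higher with CoA (log2 1.13 ± 0.29, adjusted p = 0.0204 by edgeR) and lower in Tc22 than with CoA (log2 -1.67 ± 0.30, adjusted p = 0.00344). Cd4 was called higher in Tc22 than in Tc0 (log2 1.59 ± 0.37, adjusted p = 0.0484), from a mean of 0.342 to 0.983 CPM. Erythroid markers stayed under 1 CPM. Some of these markers were thus called in the same comparisons as the subunits, and Klrc1, Klra7 and Cd4 in Tc22 against Tc0, where no subunit was. Their part in the results below was not tested. In bulk samples, fewer cells of a type and less RNA per cell cannot be told apart. Il22, the interleukin-22 gene, averaged 0.923 CPM in Tc0, 38.2 CPM with CoA and 6.40 CPM in Tc22 libraries. By edgeR it was called higher than in Tc0 both with CoA (log2 5.18 ± 0.36, adjusted p = 0.000162) and in Tc22 (log2 2.87 ± 0.35, adjusted p = 0.00300). It was called lower in Tc22 than with CoA (log2 -2.31 ± 0.30, adjusted p = 0.000959 by edgeR).

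**Figure D1:**
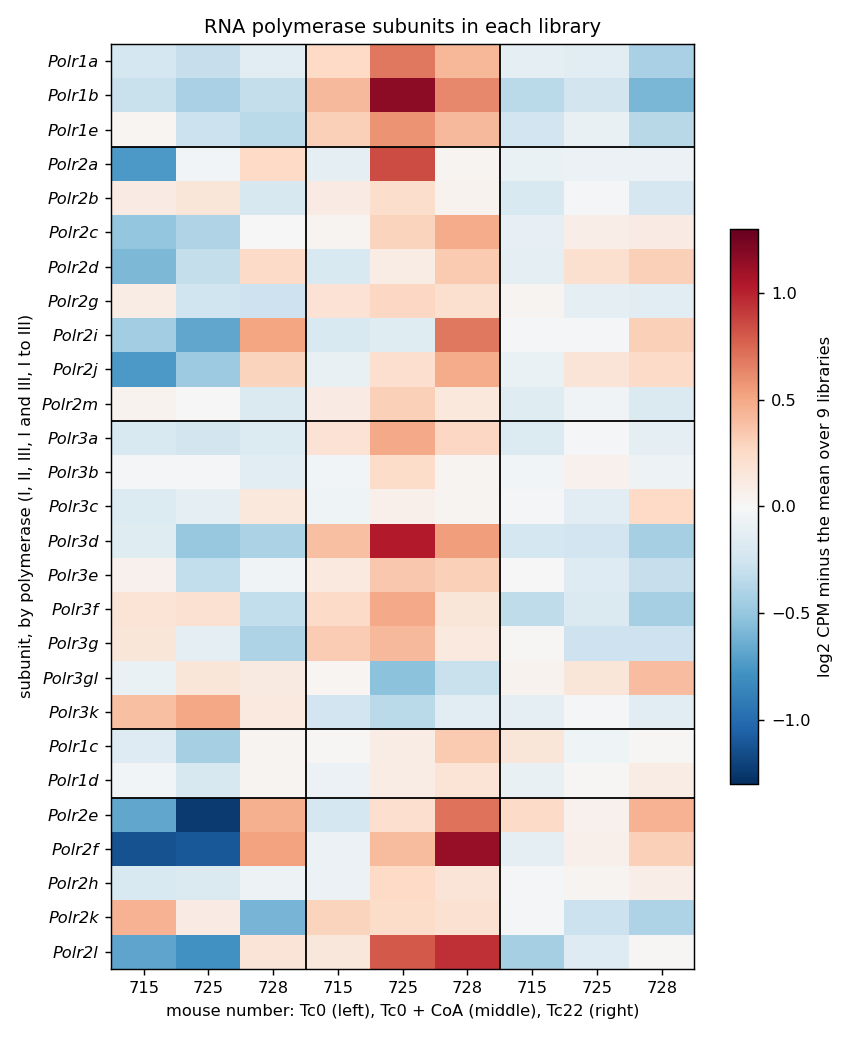
Each row is 1 of 27 subunits, ordered by polymerase, and each column a library (mice 715, 725 and 728 in Tc0, in Tc0 with CoA and in Tc22); the colour gives log2 CPM minus the mean of that subunit over the 9 libraries. Red fills the CoA columns for Polr1a, Polr1b, Polr1e and Polr3d, Polr3k is blue there, and the Tc0 column of mouse 728 differs from its neighbours for Polr2e and Polr2f.

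With CoA, 11 of the 28 subunit genes rose and 1 fell. In Tc22 cells none was called against Tc0, a comparison in which 3.68% of all genes were called. All 3 polymerase I genes were among those that rose, at 1.55 to 2.11 times their Tc0 level. The 11 are Polr1a, Polr1b, Polr1e, Polr2c, Polr2g, Polr2j, Polr3a, Polr3d, Polr3g, Polr2f and Polr2l, and the member that fell is Polr3k. Calls are edgeR's quasi-likelihood test with mouse as a block and an adjusted p under 0.05 over 15348 genes. Of all genes, 24.5% were called with CoA, 12.5% higher and 12.0% lower, against 39.3% and 3.57% of the members. The CoA and Tc0 libraries did not overlap for 9 members on the higher side (14.2% of all genes) and for Polr3k on the lower side (13.6%). In all 3 mice, 20 members were higher with CoA and 1 lower. The same count was not made over all genes, so it has no background share. The median log2 fold change was 0.35 over the 28, with 26 above 0, and -0.01 over all genes.

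The count of members that rose moved with single libraries. It was 4 without Tc0 725, 5 without CoA 725 and 6 without CoA 728. Without the other libraries, 1 at a time, it lay between 8 and 13. It was 12 without Tc0 728. The calls of Polr1a, Polr1b, Polr3d and Polr2l were kept without each of the 9 libraries in turn. Without mouse as a block, 6 of the 12 calls were kept: Polr1a, Polr1b, Polr1e, Polr3a, Polr3d and Polr3k. A fit of the Tc0 and CoA libraries alone kept 9 of the 12, all but Polr2g, Polr2j and Polr3g.

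**Figure D2:**
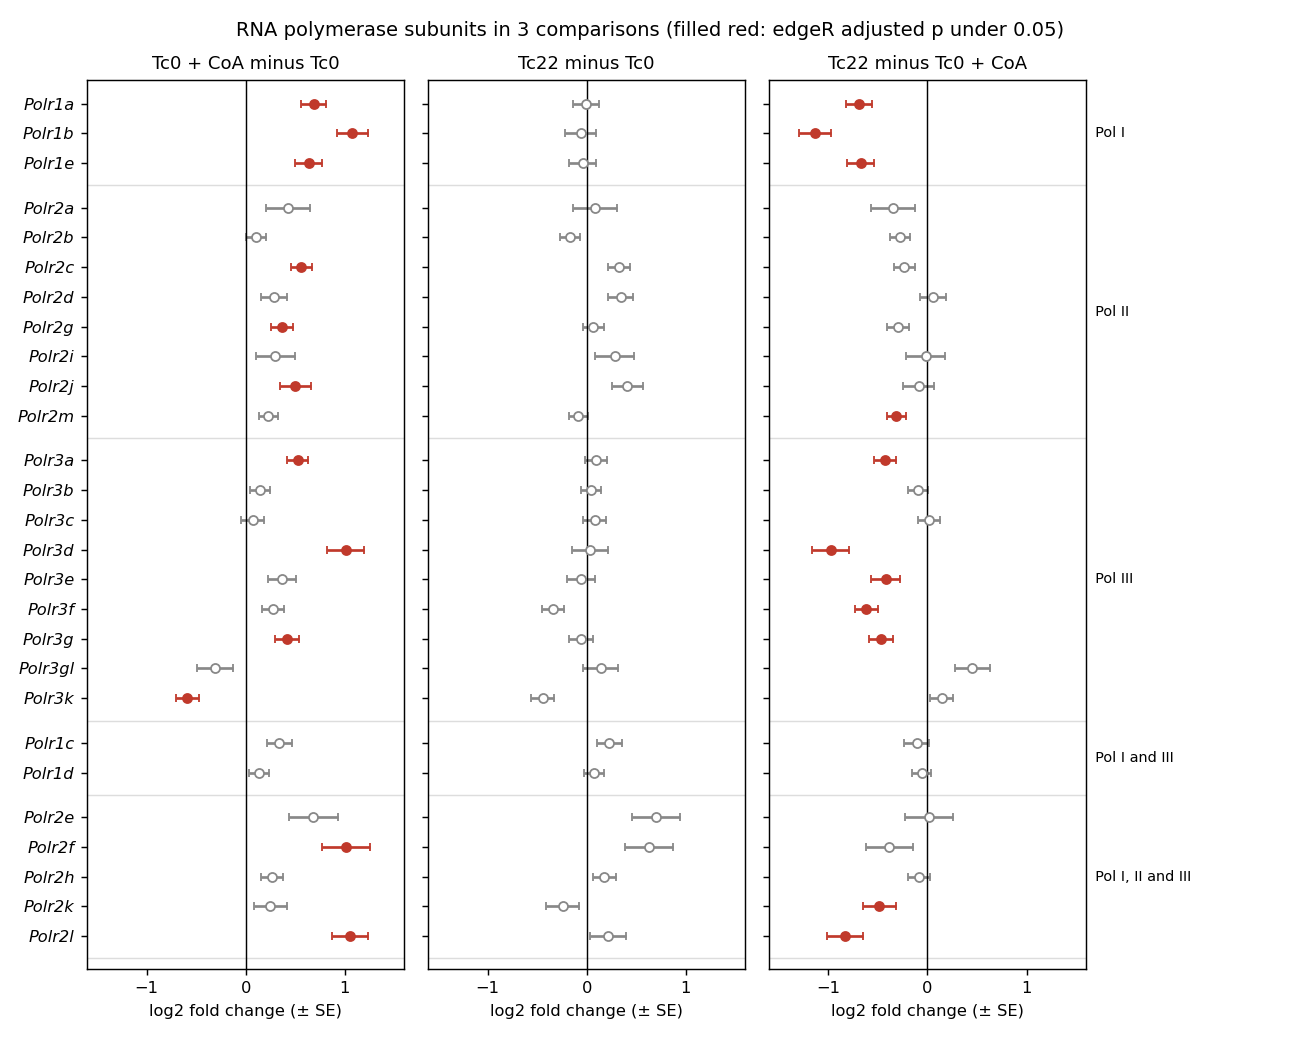
Log2 fold changes (points) with their standard errors (bars) are plotted for 27 subunits, by polymerase, in Tc0 with CoA against Tc0, Tc22 against Tc0 and Tc22 against Tc0 with CoA; filled red points have an edgeR adjusted p under 0.05. In the first panel 11 points to the right of 0 and 1 to the left (Polr3k) are filled, in the middle panel none, and in the last panel 11 to the left.

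All 3 polymerase I subunits rose with CoA, and all 3 were lower in Tc22 cells than with CoA. Polr1b stood at 49.3, 45.0 and 48.4 CPM in Tc0 libraries, at 80.5, 135 and 92.6 CPM with CoA and at 47.4, 51.1 and 39.9 CPM in Tc22 libraries. Polr1b encodes one of the catalytic pair (ENSMUSG00000027395, chromosome 2, 129100995 to 129126594, plus strand, GRCm38), and its 3 CoA libraries all lay above the highest of the other 6. Its mean was 103 ± 28.4 CPM with CoA and 47.6 ± 2.31 CPM in Tc0 (SD, n = 3), a log2 fold change of 1.08 ± 0.16 (edgeR adjusted p = 0.00309). Polr1a stood at 92.1, 88.0 and 97.3 CPM in Tc0 libraries, at 129, 174 and 146 CPM with CoA and at 99.2, 97.4 and 80.4 CPM in Tc22 libraries. Polr1a, the other catalytic subunit (ENSMUSG00000049553, chromosome 6, 71909053 to 71984935, plus strand), also had every CoA library above the other 6. It rose from 92.5 ± 4.63 to 149.5 ± 22.5 CPM (log2 0.68 ± 0.13, adjusted p = 0.00685 by edgeR). In both genes CoA 725 was the highest and CoA 715 the lowest of the 3.

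Polr1e stood at 29.5, 24.0 and 22.8 CPM in Tc0 libraries, at 36.1, 43.4 and 38.9 CPM with CoA and at 24.4, 27.3 and 22.6 CPM in Tc22 libraries. Polr1e (ENSMUSG00000028318, chromosome 4, 45018583 to 45036565, plus strand) encodes the partner of Cd3eap in the built-in initiation and elongation module of polymerase I. Its CoA libraries lay above all others, and it went from 25.4 ± 3.60 to 39.5 ± 3.70 CPM (log2 0.64 ± 0.14, adjusted p = 0.0106 by edgeR). The Polr1e call was lost on leaving out CoA 725, CoA 728 or Tc0 725 (adjusted p 0.0558 to 0.0711). Against the same CoA libraries, Tc22 libraries were lower for the 3 genes: Polr1b fell most (log2 -1.14 ± 0.16, adjusted p = 0.00129 by edgeR). Polr1a (log2 -0.69 ± 0.13, adjusted p = 0.00391) and Polr1e (log2 -0.67 ± 0.14, adjusted p = 0.00557) fell likewise. This comparison shares its CoA libraries with the one against Tc0, so the 2 are not independent. Tc22 and Tc0 libraries lay close together, with log2 differences of -0.01 for Polr1a (interval of 2 SE -0.26 to 0.25), -0.06 for Polr1b (-0.38 to 0.26) and -0.04 for Polr1e (-0.31 to 0.23).

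Of the 3 polymerase I subunits with older symbols, Cd3eap and Twistnb rose with CoA and Znrd1 was not called. Cd3eap stood at 10.8, 13.2 and 14.9 CPM in Tc0 libraries, at 17.6, 28.5 and 22.6 CPM with CoA and at 14.3, 17.4 and 16.9 CPM in Tc22 libraries. Cd3eap, the partner of Polr1e, rose with CoA (log2 0.81 ± 0.14, adjusted p = 0.00582 by edgeR), and its CoA libraries lay above the other 6. It was lower in Tc22 than in CoA libraries (log2 -0.48 ± 0.14, adjusted p = 0.0278), a call lost on leaving out CoA 725, CoA 728, Tc22 715, Tc22 725 or Tc22 728 (adjusted p 0.0643 to 0.176) and with no block (0.134). Twistnb stood at 107, 112 and 64.0 CPM in Tc0 libraries, at 118, 148 and 101 CPM with CoA and at 75.9, 87.2 and 69.3 CPM in Tc22 libraries. Twistnb, a stalk subunit, rose (log2 0.39 ± 0.13, adjusted p = 0.0488) although its Tc0 and CoA libraries overlapped. That call was lost on leaving out CoA 725, CoA 728, Tc0 725, Tc0 728, Tc22 715 or Tc22 725 (adjusted p 0.0682 to 0.188), without the mouse block (adjusted p = 0.314) and in a fit of the Tc0 and CoA libraries alone (0.0775). Twistnb was lower in Tc22 than in CoA libraries (log2 -0.64 ± 0.13, adjusted p = 0.00505), a call that was 0.0749 with no block. Znrd1, the small subunit with RNA cleavage activity, stood at 19.4, 22.8 and 25.4 CPM in Tc0 and 19.8, 19.5 and 22.7 CPM with CoA and was not called (log2 -0.12 ± 0.12, adjusted p = 0.519). Of the 6 polymerase I subunits under either kind of symbol, 5 rose with CoA (83.3%, against 12.5% of all genes). In Tc22 libraries 5 were lower than with CoA (83.3%, against 16.0% of all genes). Against Tc0, edgeR called 0 in Tc22, where 3.68% of all genes were called. Of the 4 subunits with older symbols, Cd3eap had the smallest p there (log2 0.32 ± 0.14, adjusted p = 0.231).

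**Figure D3:**
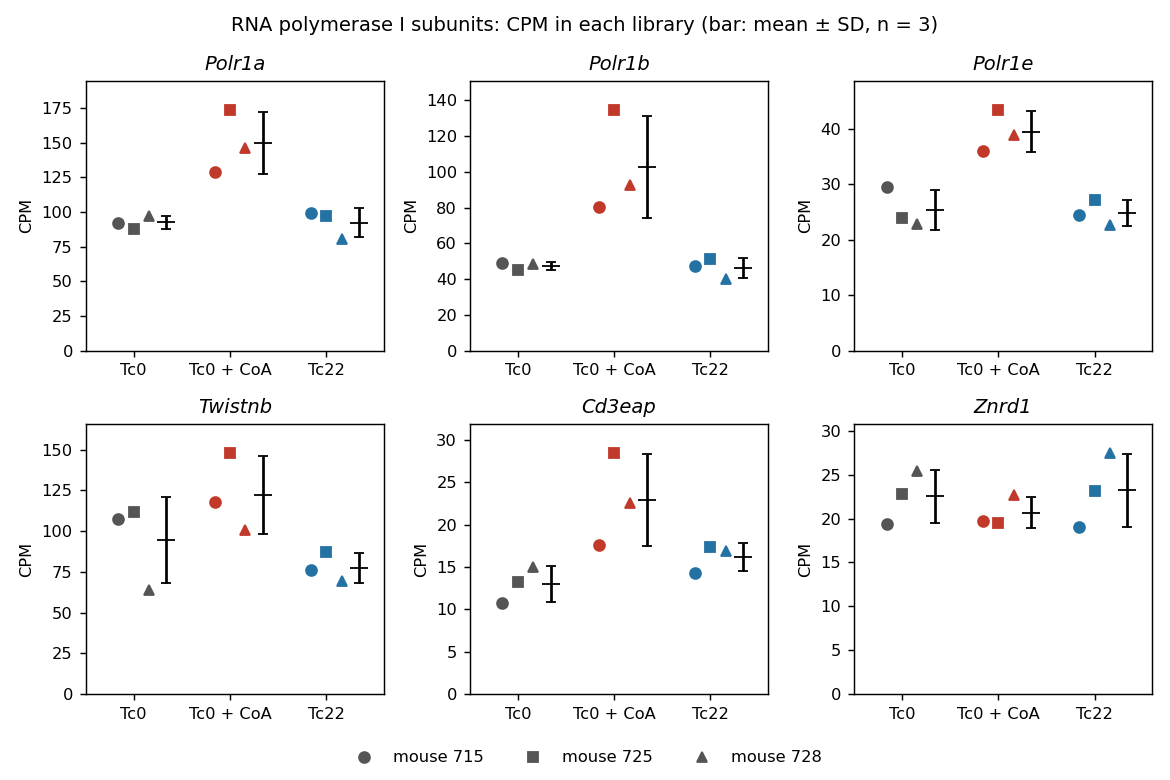
CPM of the 6 polymerase I subunits in each library, by group, with mice 715, 725 and 728 as circles, squares and triangles and the mean ± SD as a bar (n = 3 libraries). The CoA points of Polr1a, Polr1b, Polr1e and Cd3eap lie above all Tc0 and Tc22 points, those of Twistnb overlap Tc0, and those of Znrd1 do not lie above either group.

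Among 12 measured factors that work with polymerase I, 6 rose with CoA and 0 fell. These are 50% higher and 0% lower, against 12.5% and 12.0% of all genes. The median was 0.45, against -0.01 over all genes. Like the other gene lists here, this list was chosen with earlier results of these data known. In Tc22, 0 of the 12 factors were called against Tc0, where 3.68% of all genes were. Compared with CoA, 5 of them were lower (41.7%, against 16.0% of all genes). Rrn3 stood at 193, 126 and 108 CPM in Tc0 libraries, at 226, 269 and 212 CPM with CoA and at 147, 119 and 106 CPM in Tc22 libraries. Rrn3, the factor that makes polymerase I able to initiate, rose with CoA (log2 0.77 ± 0.15, adjusted p = 0.00831 by edgeR). That call was lost on leaving out Tc0 725 (adjusted p = 0.0560) and, at 0.0624, without the mouse block. In Tc22 it was lower than with CoA (log2 -0.95 ± 0.15, adjusted p = 0.00229). Nolc1 stood at 116, 99.8 and 115 CPM in Tc0 libraries, at 189, 285 and 242 CPM with CoA and at 116, 109 and 96.3 CPM in Tc22 libraries. Nolc1, a nucleolar phosphoprotein, rose with CoA (log2 1.11 ± 0.15, adjusted p = 0.00263) and was lower in Tc22 than with CoA (log2 -1.15 ± 0.15, adjusted p = 0.00110). Mybbp1a, another nucleolar protein, went from 165 ± 31.3 to 344 ± 69.7 CPM with CoA (log2 1.06 ± 0.17, adjusted p = 0.00450). Taf1a, a subunit of the promoter selectivity factor of polymerase I, was lower in Tc22 than in CoA libraries (log2 -0.95 ± 0.18, adjusted p = 0.00394). Cavin1, known as a polymerase I transcript release factor, had the smallest p of the list in Tc22 against Tc0 and was not called (log2 1.24 ± 0.33, adjusted p = 0.0780). It stood at 0.630, 0.420 and 1.27 CPM in Tc0 and 1.87, 1.45 and 2.08 CPM in Tc22. Myc, which drives ribosome production, stood at 86.0 ± 7.33 CPM in Tc0 and 110.3 ± 22.7 CPM with CoA (log2 0.35 ± 0.16, adjusted p = 0.130) and was not called.

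Of the 8 polymerase II subunits, 3 rose with CoA (Polr2c, Polr2g and Polr2j), and both catalytic subunits did not pass the test. The 3 are 37.5% of the class, against 12.5% of all genes called higher. Polr2a stood at 28.3, 46.5 and 57.1 CPM in Tc0 libraries, at 43.8, 85.8 and 49.0 CPM with CoA and at 44.7, 45.3 and 45.1 CPM in Tc22 libraries. Polr2a, whose tail of repeats is phosphorylated during the transcription cycle, spanned a wider range among the Tc0 libraries than the difference between the Tc0 and CoA means (log2 0.43 ± 0.22, adjusted p = 0.188 by edgeR). It was higher with CoA in mice 715 and 725 and lower in mouse 728. Polr2b stood at 249, 258 and 199.7 CPM in Tc0 libraries, at 249, 269.8 and 239 CPM with CoA and at 201, 226 and 198 CPM in Tc22 libraries. Polr2b, its catalytic partner, had a log2 difference of 0.11 with CoA, with an interval of 2 SE from -0.09 to 0.31 (adjusted p = 0.469). The interval of Polr2a was wider, -0.02 to 0.88.

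Polr2c stood at 42.0, 45.2 and 59.6 CPM in Tc0 libraries, at 60.9, 72.5 and 83.0 CPM with CoA and at 55.4, 63.1 and 63.9 CPM in Tc22 libraries. Polr2c, a platform subunit (ENSMUSG00000031783, chromosome 8, 94857450 to 94873535, plus strand), was higher in every CoA library than in any Tc0 library and rose (log2 0.56 ± 0.11, adjusted p = 0.00727 by edgeR). It was lost on leaving out Tc0 725 (adjusted p = 0.0513) and with no mouse block (adjusted p = 0.0635). Its exons overlap those of Dok4 on the opposite strand over 953 bases, and Dok4 stood at 0.470 to 2.29 CPM. Polr2j stood at 12.2, 14.6 and 24.9 CPM in Tc0 libraries, at 19.1, 23.8 and 28.5 CPM with CoA and at 19.1, 22.9 and 24.2 CPM in Tc22 libraries. Polr2j, the platform partner of Polr2c, was higher with CoA in each mouse while the groups overlapped (log2 0.50 ± 0.16, adjusted p = 0.0439). Without Tc0 728 the value was 0.71, adjusted p = 0.0109. The Polr2j call was lost on leaving out CoA 715, CoA 725, CoA 728, Tc0 715, Tc0 725, Tc22 715 or Tc22 725 (adjusted p 0.0632 to 0.215); without the block its adjusted p was 0.301, and in a fit of the Tc0 and CoA libraries alone 0.0616. Its exons overlap Lrwd1 over 176 bases on the opposite strand. Lrwd1 stood at 28.0, 26.1 and 64.5 CPM in Tc0 and 30.3, 32.3 and 52.0 CPM with CoA, highest in Tc0 728, where Polr2j was also the highest of its group. The part of Lrwd1 reads in the Polr2j counts was not tested, and whether counting used strand is not given in the sources used here.

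Polr2g stood at 79.4, 62.0 and 61.8 CPM in Tc0 libraries, at 84.7, 89.5 and 86.3 CPM with CoA and at 76.3, 68.6 and 67.5 CPM in Tc22 libraries. Polr2g, a stalk subunit (ENSMUSG00000071662, chromosome 19, 8793127 to 8798577, minus strand), had every CoA library above every Tc0 library, by a small step in mouse 715 (log2 0.37 ± 0.11, adjusted p = 0.0351 by edgeR). The call was lost on leaving out CoA 725, CoA 728, Tc0 725, Tc0 728, Tc22 715 or Tc22 725 (adjusted p 0.0624 to 0.187), with no block (adjusted p = 0.106) and in a fit of the Tc0 and CoA libraries alone (0.0945). Its stalk partner Polr2d ranged from 15.8 to 28.2 CPM in Tc0 and from 20.6 to 30.0 CPM with CoA and was not called (log2 0.29 ± 0.13, adjusted p = 0.133). Without Tc0 728 Polr2d was called (0.42, adjusted p = 0.0326), as was Polr2a (0.72, adjusted p = 0.0401). Polr2i, a small subunit with a part in fidelity, had the fewest counts, 3.40 to 7.76 CPM in Tc0, and was not called (log2 0.30 ± 0.20, adjusted p = 0.299).

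Polr2m stood at 161, 155 and 138 CPM in Tc0 libraries, at 168, 194 and 172 CPM with CoA and at 139.8, 151 and 138 CPM in Tc22 libraries. Polr2m is not part of the core enzyme but binds a fraction of polymerase II and competes with an initiation factor. Its CoA libraries lay above the Tc0 libraries without a call (log2 0.23 ± 0.10, adjusted p = 0.112 by edgeR). In the main fit it was the only polymerase II subunit called lower in Tc22 than in CoA libraries (log2 -0.31 ± 0.10, adjusted p = 0.0332). Polr2g (log2 -0.30 ± 0.11, adjusted p = 0.0600) and Polr2b (log2 -0.28 ± 0.10, adjusted p = 0.0579) were not called, though every Tc22 library lay under every CoA library for both. In an edgeR fit of the Tc22 and CoA libraries alone both were called (adjusted p 0.0368 and 0.0295). Without Tc0 728 both were called as well (0.0437 and 0.0185). Polr2b was also called with DESeq2 size factors (0.0482) or library size alone (0.0419), and Polr2g without CoA 715 (0.0197). The Polr2m call was lost on leaving out CoA 725, CoA 728, Tc0 725, Tc22 715, Tc22 725 or Tc22 728 (adjusted p 0.0530 to 0.169), with no block (adjusted p = 0.0891) and with no low-count filter. Among 19 general initiation factors of polymerase II, 4 rose with CoA and 0 fell, with a median of 0.24. These are 21.1% higher and 0% lower, against 12.5% and 12.0% of all genes. In Tc22, edgeR called 0 of the 19 against Tc0, where 3.68% of all genes were called. Compared with CoA, 8 of them were called lower in Tc22 (42.1%, against 16.0% of all genes). The 3 with the smallest p with CoA were all subunits of the helicase and kinase factor TFIIH. Gtf2h1 went from 76.3 ± 14.7 to 129 ± 19.8 CPM (log2 0.77 ± 0.12, adjusted p = 0.00424) and stood at 72.3 ± 6.75 CPM in Tc22 (log2 -0.84 ± 0.12, adjusted p = 0.00162 against CoA). Gtf2h5 (log2 0.54 ± 0.11, adjusted p = 0.00813) was lost without CoA 728 (adjusted p = 0.0623). Gtf2h3 (log2 0.36 ± 0.11, adjusted p = 0.0365) was lost on leaving out CoA 725, CoA 728, Tc0 715, Tc0 725, Tc22 715 or Tc22 725 (adjusted p 0.0650 to 0.182), with no block (0.107), with no low-count filter and in a fit of the Tc0 and CoA libraries alone. In Tc22 against CoA, Gtf2h5 (log2 -0.52 ± 0.11, adjusted p = 0.00606) and the TFIIE subunit Gtf2e1 (log2 -0.56 ± 0.14, adjusted p = 0.0131) were lower too. Gtf2h5 was lost on leaving out CoA 728 (adjusted p = 0.0581) and Gtf2e1 on leaving out CoA 725, CoA 728 or Tc22 725 (adjusted p 0.0801 to 0.0835) and with no block (0.0893).

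Of 29 elongation factors of polymerase II, 5 rose with CoA and 0 fell, with a median of 0.08. These are 17.2% higher, near the 12.5% of all genes, and 0% lower, against 12.0%. Against CoA, 3 were higher in Tc22 and 6 lower (10.3% and 20.7%, near the 16.0% of all genes in each direction). Supt6, a histone chaperone that travels with the enzyme, rose with CoA (log2 0.47 ± 0.11, adjusted p = 0.0132 by edgeR). Paf1, the name-giving subunit of the PAF elongation complex, rose from 43.9 ± 2.42 to 59.5 ± 6.41 CPM (log2 0.43 ± 0.10, adjusted p = 0.0149). Ell2, part of the super elongation complex, rose as well (log2 0.52 ± 0.15, adjusted p = 0.0316) with overlapping groups. The Supt6 and Paf1 calls were lost on leaving out CoA 725, CoA 728 or Tc0 725 (adjusted p 0.0508 to 0.0984). Ell2 was lost on leaving out these or Tc0 728 (adjusted p 0.0850 to 0.171). With no block, Paf1 (0.0546) and Ell2 (0.217) were lost. In Tc22 against CoA, Ell2 (log2 -0.88 ± 0.15, adjusted p = 0.00293), Paf1 (log2 -0.56 ± 0.10, adjusted p = 0.00380) and Leo1, also of the PAF complex (log2 -0.53 ± 0.12, adjusted p = 0.00805), were lower. Leo1 was lost on leaving out CoA 725 or CoA 728 (adjusted p 0.0520 to 0.0572). Against Tc0, 0 were called in Tc22, where 3.68% of all genes were called. Nelfb, of the pausing factor NELF, had the smallest p there (log2 0.41 ± 0.11, adjusted p = 0.0750).

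Of the 10 polymerase III subunits, 3 rose with CoA (Polr3a, Polr3d and Polr3g), 1 fell (Polr3k) and 6 were not called. These are 30% higher and 10% lower, against 12.5% and 12.0% of all genes. The share lower was thus near that of all genes. Polr3d stood at 9.88, 7.83 and 8.26 CPM in Tc0 libraries, at 14.5, 22.4 and 16.0 CPM with CoA and at 9.38, 9.25 and 8.12 CPM in Tc22 libraries. Polr3d (ENSMUSG00000000776, chromosome 14, 70438757 to 70443447, minus strand), part of the built-in module that resembles a polymerase II initiation factor, was higher in every CoA library than in the other 6. It went from 8.66 ± 1.08 to 17.6 ± 4.22 CPM (log2 1.01 ± 0.19, adjusted p = 0.00640 by edgeR). Its partner in that module, Polr3e, had a smaller difference. Polr3e stood at 25.3, 19.5 and 23.6 CPM in Tc0 libraries, at 26.6, 31.0 and 30.2 CPM with CoA and at 24.3, 21.7 and 19.7 CPM in Tc22 libraries. The Polr3e groups did not overlap, but it was not called with CoA (log2 0.37 ± 0.14, adjusted p = 0.0906). Without CoA 715 it was called higher (0.52, edgeR adjusted p = 0.0288). Polr3e was called lower in Tc22 than with CoA (log2 -0.42 ± 0.14, adjusted p = 0.0473), as was Polr3d (log2 -0.98 ± 0.18, adjusted p = 0.00427). The Polr3e call was lost on leaving out CoA 725, CoA 728, Tc0 715, Tc22 715, Tc22 725 or Tc22 728 (adjusted p 0.0599 to 0.224), and with library size alone, with TMM without mitochondrial and histone genes, without the low-count filter or without the block.

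Polr3a stood at 41.3, 40.1 and 42.0 CPM in Tc0 libraries, at 53.9, 67.0 and 57.4 CPM with CoA and at 42.0, 46.7 and 43.4 CPM in Tc22 libraries. Polr3a, one of the catalytic pair (ENSMUSG00000025280, chromosome 14, 24448696 to 24487058, minus strand), was higher in every CoA library than in any other library and rose (log2 0.52 ± 0.11, adjusted p = 0.00924 by edgeR). Its call was lost on leaving out CoA 725 or Tc0 725 (adjusted p 0.0620 to 0.0667). Polr3b stood at 54.7, 54.8 and 50.4 CPM in Tc0 libraries, at 54.2, 65.5 and 57.0 CPM with CoA and at 54.4, 58.0 and 53.0 CPM in Tc22 libraries. Polr3b, the other catalytic subunit, was not called (log2 0.14 ± 0.10, adjusted p = 0.336, interval of 2 SE -0.06 to 0.34), and its CoA library of mouse 715 was no higher than the Tc0 library of that mouse. In Tc22 against CoA, Polr3a was lower (log2 -0.43 ± 0.11, adjusted p = 0.0143), a call lost on leaving out CoA 725, CoA 728, Tc22 715 or Tc22 725 (adjusted p 0.0642 to 0.100). The catalytic pairs of polymerases I, II and III thus gave 2, 0 and 1 calls with CoA, where 24.5% of all genes were called. The counts for II and III moved with single libraries. Without Tc0 728 Polr2a was called (0.72, edgeR adjusted p = 0.0401), and the Polr3a call was lost without CoA 725 or Tc0 725.

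The initiation module of polymerase III holds Polr3c, Polr3f and either Polr3g or Polr3gl, a pair of paralogs that replace each other. Polr3g is known from stem cells and dividing cells, and Polr3gl is found more widely. Polr3g stood at 40.7, 33.6 and 27.6 CPM in Tc0 libraries, at 45.9, 48.9 and 40.0 CPM with CoA and at 37.0, 30.2 and 30.3 CPM in Tc22 libraries. Polr3g rose with CoA (log2 0.42 ± 0.12, adjusted p = 0.0352 by edgeR), higher in each mouse with overlapping groups. Polr3gl stood at 10.5, 12.4 and 12.0 CPM in Tc0 libraries, at 11.3, 7.67 and 9.10 CPM with CoA and at 11.5, 12.4 and 14.6 CPM in Tc22 libraries. Polr3gl was not called (log2 -0.31 ± 0.18, adjusted p = 0.234): its CoA libraries of mice 725 and 728 were below the Tc0 libraries of those mice, and that of mouse 715 above. The Polr3g call was lost on leaving out CoA 725, CoA 728, Tc0 725, Tc0 728, Tc22 715 or Tc22 725 (adjusted p 0.0514 to 0.198), with no block (adjusted p = 0.163) and in a fit of the Tc0 and CoA libraries alone (0.0767). Without CoA 715, Polr3gl was called lower (-0.53, adjusted p = 0.0411).

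As CPM, the ratio of Polr3g to Polr3gl was 3.88, 2.72 and 2.30 in Tc0, 4.06, 6.37 and 4.40 with CoA and 3.23, 2.43 and 2.07 in Tc22 libraries. Every CoA library had the highest ratio of its mouse, and every Tc22 library the lowest. The mean log2 difference from Tc0 was 0.74 ± 0.61 with CoA and -0.19 ± 0.064 in Tc22 (SD, n = 3 mice). A two-sided exact sign-flip permutation test over 3 mice gave p = 0.25 for each, the smallest it can give. Per kilobase of exon, the mean ratio was 1.20 ± 0.333 in Tc0, 2.01 ± 0.507 with CoA and 1.05 ± 0.240 in Tc22.

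The other members of the initiation module were not called with CoA. Polr3c differed by 0.07 (interval of 2 SE -0.16 to 0.30). Polr3f stood at 64.5, 65.3 and 45.4 CPM in Tc0 libraries, at 67.3, 80.2 and 63.2 CPM with CoA and at 45.3, 49.8 and 42.1 CPM in Tc22 libraries. Polr3f was higher with CoA in each mouse (log2 0.28 ± 0.11, adjusted p = 0.101 by edgeR) and was lower in Tc22 than with CoA (log2 -0.62 ± 0.11, adjusted p = 0.00370), with each Tc22 library under each CoA library. Polr3g too was lower in Tc22 than with CoA (log2 -0.47 ± 0.12, adjusted p = 0.0174), a call lost on leaving out CoA 725, CoA 728, Tc22 715 or Tc22 725 (adjusted p 0.0658 to 0.123) and with no block (0.0948). The stalk subunit Crcp, which stands under an older symbol, was not called with CoA either (log2 0.18 ± 0.12, adjusted p = 0.305).

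Polr3k was the 1 member that fell with CoA. Polr3k stood at 122, 132 and 101 CPM in Tc0 libraries, at 78.0, 72.8 and 84.3 CPM with CoA and at 85.6, 91.0 and 83.5 CPM in Tc22 libraries. Polr3k (ENSMUSG00000038628, chromosome 2, 181864337 to 181870830, plus strand) encodes a small subunit that cleaves the nascent RNA and takes part in termination and renewed initiation. All 3 CoA libraries and all 3 Tc22 libraries lay under all 3 Tc0 libraries. It went from 118 ± 15.5 to 78.3 ± 5.77 CPM with CoA (log2 -0.59 ± 0.12, adjusted p = 0.00857 by edgeR) and to 86.7 ± 3.83 CPM in Tc22 (log2 -0.45 ± 0.12, adjusted p = 0.0749), where it was not called. With CoA the call was lost on leaving out CoA 725 or Tc0 725 (adjusted p 0.0536 to 0.0543). In Tc22 against Tc0 it was called by DESeq2 (-0.44, adjusted p = 0.0280) and, by edgeR, without the low-count filter (-0.45, 0.0235) or without Tc0 728 (-0.56, 0.0166). Tc22 and CoA libraries overlapped (log2 0.14 ± 0.12, adjusted p = 0.381).

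**Figure D4:**
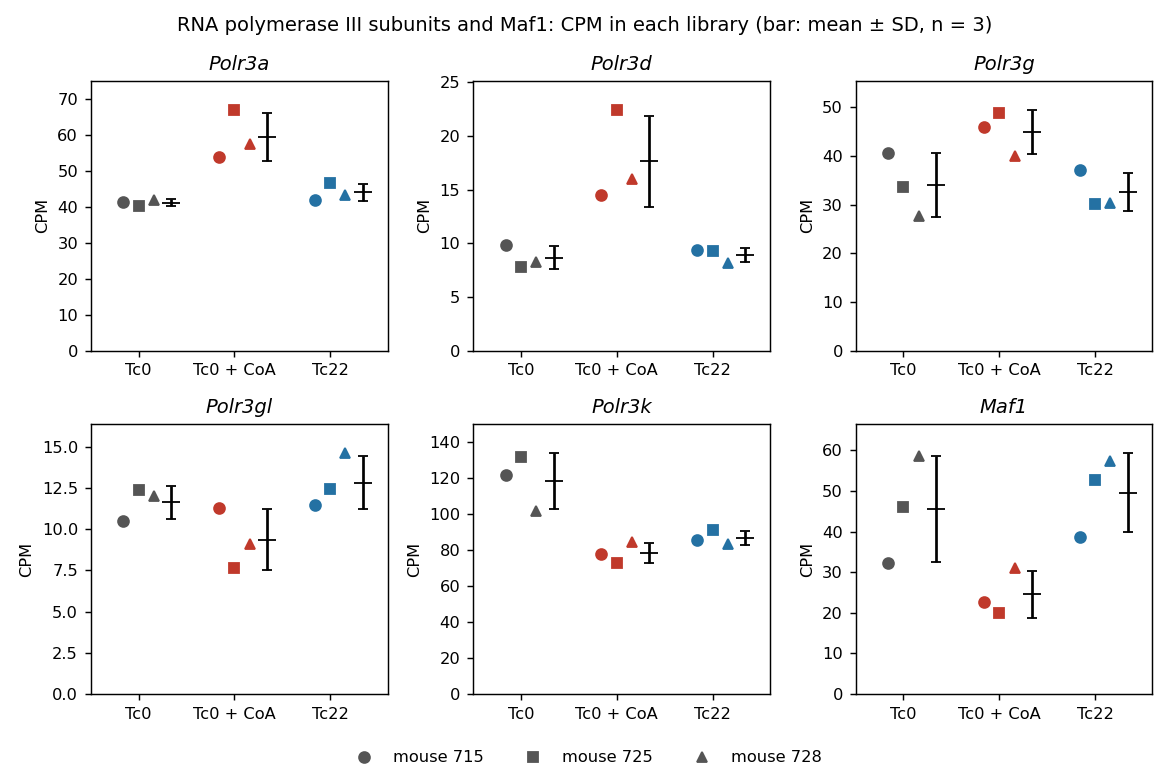
CPM of 5 polymerase III subunits and of Maf1 in each library, by group, with mice 715, 725 and 728 as circles, squares and triangles and the mean ± SD as a bar (n = 3 libraries). The CoA points lie above all others for Polr3a and Polr3d and below all others for Maf1, and both the CoA and the Tc22 points of Polr3k lie below its Tc0 points.

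Among 17 factors of polymerase III, 3 rose with CoA, 1 fell and 0 were called in Tc22 against Tc0 (medians 0.16 and -0.06). With CoA these are 17.6% higher and 5.88% lower, against 12.5% and 12.0% of all genes. In Tc22 against Tc0, 3.68% of all genes were called. The 1 that fell was Maf1, the repressor that binds polymerase III and keeps it from initiating. Maf1 stood at 32.3, 45.9 and 58.5 CPM in Tc0 libraries, at 22.7, 19.9 and 31.1 CPM with CoA and at 38.6, 52.6 and 57.4 CPM in Tc22 libraries. Every CoA library lay under all 6 others, with log2 -0.87 ± 0.15, adjusted p = 0.00499 by edgeR against Tc0. This call was kept without each of the 9 libraries in turn and was 0.0536 without the mouse block. In Tc22 libraries Maf1 was higher than with CoA (log2 1.01 ± 0.15, adjusted p = 0.00154) and was not called against Tc0 (log2 0.14 ± 0.14, adjusted p = 0.590). Of the promoter factor TFIIIC, Gtf3c1 (log2 0.42 ± 0.11, adjusted p = 0.0228) and Gtf3c6 (log2 0.46 ± 0.13, adjusted p = 0.0271) rose with CoA. Gtf3c1 was lost on leaving out CoA 725, CoA 728 or Tc0 725 (adjusted p 0.0860 to 0.153) and Gtf3c6 on leaving out CoA 725, CoA 728, Tc0 725 or Tc0 728 (adjusted p 0.0567 to 0.125). Both were lost with no block (0.116 and 0.100) and in a fit of the Tc0 and CoA libraries alone (0.0545 and 0.0636). In Tc22 against CoA, 1 factor was higher and 7 lower (5.88% and 41.2%, against 16.0% of all genes each way), among them Gtf3c6 (log2 -0.61 ± 0.13, adjusted p = 0.00647) and Gtf3c4 (log2 -0.49 ± 0.11, adjusted p = 0.00870). The Gtf3c4 call was lost on leaving out CoA 725, CoA 728 or Tc22 725 (adjusted p 0.0556 to 0.0713). Bdp1, of the initiation factor TFIIIB, had the smallest p in Tc22 against Tc0 (log2 -0.31 ± 0.11, adjusted p = 0.156).

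Of the 5 subunits shared by all 3 enzymes, Polr2l and Polr2f rose with CoA, and these are small subunits of the enzyme core. They are 40% of the class, against 12.5% of all genes called higher. Polr2l stood at 8.81, 8.21 and 15.9 CPM in Tc0 libraries, at 15.6, 24.6 and 27.3 CPM with CoA and at 10.5, 12.6 and 14.4 CPM in Tc22 libraries. Polr2l (ENSMUSG00000038489, chromosome 7, 141471860 to 141475132, minus strand) was higher with CoA in each mouse (log2 1.05 ± 0.18, adjusted p = 0.00540 by edgeR), with overlap through Tc0 728 (without that library, 1.23, adjusted p = 0.00956). The call held without each library in turn and was 0.0558 without the mouse block. Polr2f stood at 5.48, 5.60 and 17.2 CPM in Tc0 libraries, at 11.4, 16.0 and 26.4 CPM with CoA and at 11.0, 12.6 and 14.9 CPM in Tc22 libraries. Polr2f rose too (log2 1.01 ± 0.24, adjusted p = 0.0160), with its Tc0 library of mouse 728 above all Tc22 libraries. Without Tc0 728 its difference was larger (1.39, adjusted p = 0.00956). Its call was lost on leaving out CoA 725, CoA 728, Tc0 715 or Tc0 725 (adjusted p 0.0511 to 0.0862) and with no block (adjusted p = 0.229). Polr2l was lower in Tc22 than with CoA (log2 -0.83 ± 0.18, adjusted p = 0.00761), a call that was 0.0820 without the block.

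Polr2e followed the same layout over libraries without a call. Polr2e stood at 13.5, 9.05 and 29.7 CPM in Tc0 libraries, at 18.4, 25.1 and 35.2 CPM with CoA and at 25.5, 22.3 and 29.4 CPM in Tc22 libraries. It was higher with CoA in each mouse (log2 0.68 ± 0.24, adjusted p = 0.0686 by edgeR), and it was called without Tc0 728 (1.02, adjusted p = 0.0207) and by DESeq2 (0.70, adjusted p = 0.0148). Polr2h ran from 29.2 to 32.1 CPM in Tc0 and from 31.7 to 40.1 CPM with CoA and was not called (log2 0.27 ± 0.11, adjusted p = 0.113). Polr2k stood at 53.8, 42.3 and 25.8 CPM in Tc0 libraries, at 48.1, 46.4 and 45.0 CPM with CoA and at 38.7, 32.2 and 29.6 CPM in Tc22 libraries. Polr2k, a zinc-binding subunit, was not called with CoA (log2 0.25 ± 0.17, adjusted p = 0.313) and was lower in Tc22 than with CoA (log2 -0.49 ± 0.17, adjusted p = 0.0492). That call was lost on leaving out CoA 725, CoA 728, Tc0 725, Tc22 715, Tc22 725 or Tc22 728 (adjusted p 0.0600 to 0.287) and with no block (0.201). Polr1c and Polr1d, the platform pair of polymerases I and III, did not pass in any of the 3 comparisons with all libraries in the fit. Polr1c stood at 42.5 ± 6.89, 53.6 ± 6.37 and 49.5 ± 3.66 CPM in Tc0, CoA and Tc22 libraries (log2 0.34 ± 0.12, adjusted p = 0.0711 with CoA). Without CoA 715, Polr1c was called higher with CoA (0.46, edgeR adjusted p = 0.0324). Polr1d stood at 131 ± 11.1, 144 ± 12.5 and 138 ± 9.06 CPM (log2 0.14 ± 0.10, adjusted p = 0.346).

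Set side by side, the median log2 fold change with CoA was 0.68 for the 3 polymerase I subunits, 0.33 for the 8 of polymerase II and 0.22 for the 10 of polymerase III. It was 0.24 for the pair shared by I and III and 0.68 for the 5 shared by all enzymes. In mice 715, 725 and 728, the median was 0.49, 0.98 and 0.77 for polymerase I, 0.32, 0.52 and 0.22 for polymerase II and 0.09, 0.28 and 0.40 for polymerase III. Polymerase I thus had a higher median than II and than III in each of the 3 mice, while II and III changed places in mouse 728. For the subunits shared by all enzymes the medians were 0.45, 1.47 and 0.62. Over all genes they ran from -0.01 to 0.01. The difference between classes was not tested, since genes of a class are not replicates. With 1 library left out, the median of polymerase III ran from 0.148 (without Tc0 728) to 0.403 (without CoA 715), and that of the subunits shared by all enzymes from 0.382 to 1.02.

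**Figure D5:**
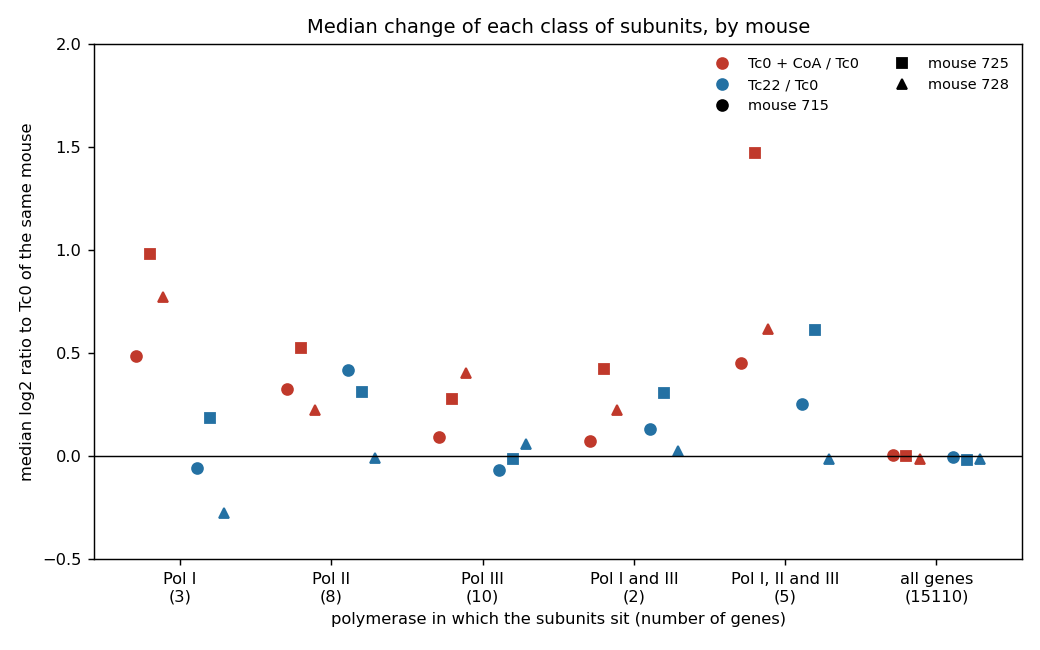
Median log2 ratio to the Tc0 library of the same mouse for each class of subunits and for all genes, with CoA in red and Tc22 in blue and mice 715, 725 and 728 as circles, squares and triangles; the number of genes stands in brackets. In each mouse the red point of polymerase I (0.49, 0.98 and 0.77) lies above those of polymerases II and III, while its blue points lie on both sides of 0.

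In Tc22 cells against Tc0, edgeR called 0 of the 28 members, where 3.68% of all genes were called (2.48% higher and 1.21% lower). At an unadjusted p under 0.05 there were 7, a count given without the share of all genes at that threshold. DESeq2 called 2, Polr2e (higher) and Polr3k (lower). The groups did not overlap for Polr3a and Polr2h on the higher side (6.55% of all genes) and for Polr3k on the lower side (5.98%). Class medians were -0.04 for polymerase I, 0.18 for II, -0.01 for III, 0.15 for the pair shared by I and III and 0.22 for those shared by all. Without Tc0 728, 8 members were called: Polr2e, Polr2d, Polr2c, Polr2f and Polr2j were higher and Polr3f, Polr3k and Polr2k lower. The counts over all genes grew as well in that setting, to 1555 higher and 1114 lower. Without Tc22 728 Polr2f alone was called (0.95, adjusted p = 0.0455). In 3 mice, 5 members were higher in Tc22 and 4 lower, again without the same count over all genes.

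Compared directly, 11 members were called lower in Tc22 than in Tc0 cells with CoA and 0 higher (39.3% of the members), where 32.0% of all genes were called by edgeR, 16.0% lower and 16.0% higher. They were Polr1a, Polr1b, Polr1e, Polr2m, Polr3a, Polr3d, Polr3e, Polr3f, Polr3g, Polr2k and Polr2l. The groups did not overlap for 13 members on the lower side (21.7% of all genes) and for Polr3gl on the higher side (20.2%). At an unadjusted p under 0.05 there were 14, a count given without the share of all genes at that threshold. Polr3gl stood highest at 0.45 (SE 0.18, adjusted p = 0.0811) and was called without CoA 715 (0.69, adjusted p = 0.0121). Polymerase III had 5 of 10 subunits called lower and polymerase II 1 of 8. The calls of Polr1a, Polr1b, Polr1e, Polr3d, Polr3f and Polr2l were kept without each library in turn. The count of members lower was 6 on leaving out CoA 725, CoA 728, Tc22 715 or Tc22 725, each alone.

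Proteins that build and import the polymerases, rather than forming part of them, include chaperones and small GTPases. Of 10 measured, 5 rose with CoA and 0 fell, with a median of 0.40. These are 50% higher and 0% lower, against 12.5% and 12.0% of all genes. Against CoA, 1 was higher in Tc22 and 4 lower (10% and 40%, against 16.0% of all genes each way). Ruvbl1 stood at 79.6, 71.9 and 77.6 CPM in Tc0 libraries, at 109.5, 139 and 130.1 CPM with CoA and at 87.4, 88.2 and 75.4 CPM in Tc22 libraries. Ruvbl1, an ATPase of the assembly chaperone, had CoA libraries above all others (log2 0.72 ± 0.12, adjusted p = 0.00456 by edgeR) and was lower in Tc22 than with CoA (log2 -0.59 ± 0.12, adjusted p = 0.00554). Gpn2 (log2 0.77 ± 0.19, adjusted p = 0.0192) and Gpn3 (log2 0.47 ± 0.12, adjusted p = 0.0201), GTPases with a part in assembly and nuclear import, rose with CoA. Gpn2 was lost on leaving out CoA 725, CoA 728, Tc0 715 or Tc0 725 (adjusted p 0.0524 to 0.113) and Gpn3 on leaving out CoA 725, CoA 728 or Tc0 725 (adjusted p 0.108 to 0.124). Both were lost with no block (0.0843 and 0.0836), and Gpn3 in a fit of the Tc0 and CoA libraries alone (0.0559). Gpn1 (log2 -0.56 ± 0.13, adjusted p = 0.0110) and Slc7a6os, an import factor (log2 -0.48 ± 0.12, adjusted p = 0.0156), were lower in Tc22 than with CoA. Gpn1 was lost on leaving out CoA 725, CoA 728 or Tc22 725 (adjusted p 0.0614 to 0.0805) and Slc7a6os on leaving out CoA 725, CoA 728, Tc22 715 or Tc22 725 (adjusted p 0.0603 to 0.110) and with no block (0.110). Ruvbl2, the partner of Ruvbl1, had the smallest p in Tc22 against Tc0 and was not called (log2 0.46 ± 0.18, adjusted p = 0.193).

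The mitochondrial polymerase is a separate enzyme encoded by Polrmt. It was listed with Tfam, Tfb2m, Tefm and Twnk, and of these 5 genes edgeR called 0 with CoA and 0 in Tc22 against Tc0. Of all genes, 24.5% and 3.68% were called in these comparisons. Tfb2m, which opens the mitochondrial promoter, stood at 29.4, 30.5 and 18.7 CPM in Tc0 and 32.1, 40.8 and 27.7 CPM with CoA (log2 0.37 ± 0.15, adjusted p = 0.0997). It was lower in Tc22 than with CoA (log2 -0.48 ± 0.15, adjusted p = 0.0340), a call lost on leaving out CoA 725, CoA 728, Tc22 715 or Tc22 725 (adjusted p 0.0733 to 0.217) and with no block (0.157). Twnk, the helicase of mitochondrial DNA, had the smallest p in Tc22 against Tc0 (log2 0.17 ± 0.14, adjusted p = 0.495).

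Levels of the subunits differed widely within an enzyme. Per kilobase of exon, mean levels in Tc0 were highest for Polr2k (65.1 CPM per kilobase), Polr2m (62.5), Polr2g (54.3) and Polr2b (50.4), followed by Polr1d (42.9) and Polr3k (37.9). The lowest was Polr3d, at 3.03 CPM per kilobase in Tc0 and 6.18 with CoA. Within the catalytic pairs, Polr1a stood at 7.79 and Polr1b at 8.19 CPM per kilobase, Polr2a at 6.22 and Polr2b at 50.4, and Polr3a at 7.06 and Polr3b at 10.1. With the length of the principal transcript in place of all exons, the same 6 genes were highest and Polr3d again lowest.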

How the data were processed

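The authors deposited 1 table of raw gene counts (whole numbers) for the 9 libraries; the 9 single-library files were identical to it. Per the labels' protocols, 200 ng of RNA per sample was depleted of ribosomal RNA and made into stranded libraries, read as paired ends of 100 cycles. Random priming without poly(A) selection keeps histone and unspliced RNA in the counts. STAR 2.5.2 and RSEM 1.3.0 stand in the submitters' processing notes, with GRCm38 and mm10 as builds. Not given in the sources used here: annotation, use of strand in counting, and rounding. Gene positions, types and lengths were taken from GENCODE M21 (GRCm38), and promoters from RefSeq.

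Groups and mice came from the sample titles, and by the series' design text each mouse supplied all populations. Deviations from group means of libraries of 1 mouse correlated with r from 0.0699 to 0.617 (9 pairs). Counts were fitted over all 9 libraries with edgeR 4.0.16's quasi-likelihood test (R 4.3.3, TMM, filterByExpr, group plus mouse, 4 residual degrees of freedom), and p was adjusted by Benjamini-Hochberg over 15348 genes. Standard errors are the log2 fold change over the square root of F, and the biological coefficient of variation was 0.158. The test was tried on simulated data. DESeq2 1.42.0, other scalings, no filter, no block, the compared groups alone and leaving out each library were alternatives. P-values rest on 3 animals.

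Members and gene lists were chosen with earlier results of these data known. Values in every library are given for members past the threshold in any comparison, the catalytic pairs, Polr3g and Polr3gl. Each factor list gives up to 3 genes per comparison with the smallest p past the threshold, or 1 where none passes. Positions are given for some members only. Counts and medians cover all 28 members, and 1 member is not reported here singly or plotted singly.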

Additional observations from a re-analysis of the deposited data

How the results depend on the processing

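No called result of a member reversed its direction under any alternative tried. With CoA against Tc0 (12 of 28 members called), the number called was 4 to 15, members newly called included, when 1 library was left out, 6 without the replicate block and 2 without mouse 725. The number called higher (11) was 4 to 13, 5 and 2, and 7 without mouse 728; the number called lower (1) was 0 to 2, and 0 without mouse 725. Leaving out all libraries of a mouse was chosen after the data were seen. In Tc22 against Tc0 (0 called) it was 0 to 8 with 1 library left out (0 to 5 higher, 0 to 3 lower), 2 by DESeq2 and 2 with no low-count filter (1 higher and 1 lower in each), and 3 without mouse 728 (2 higher and 1 lower). In Tc22 against CoA (11 called) it was 6 to 13 (0 to 1 higher, 6 to 13 lower), 6 without the replicate block, 6 without mouse 725 and 5 without mouse 728, all lower; without mouse 715, 1 was higher and 7 were lower. DESeq2 kept all 12 and all 11 calls of the 2 comparisons with CoA libraries.

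The polymerase III median with CoA was 0.45 without mouse 715 (0.22 with all) and 0.148 to 0.403 with 1 library left out; in Tc22 against Tc0 it was 0.0693 without mouse 715 (-0.01 with all). The median of subunits shared by all enzymes in Tc22 against CoA was -0.467 to -0.0923 with 1 library left out (-0.39 with all). Over all genes, with CoA, 656 to 2360 genes were higher and 504 to 1996 lower with 1 library left out. In Tc22 against Tc0 these were 148 to 1555 and 53 to 1114, and 87 and 33 without the replicate block. With 3 mice and 4 residual degrees of freedom, smaller differences may have been missed. Of the 12 calls with CoA, Polr1b and Polr2l were kept without each mouse in turn.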

Other observations

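In Tc0 728, members with a principal transcript under 1500 bases and longer ones overlapped widely but differed in their medians. Relative to the mean of the other Tc0 libraries, the 11 short members had a median log2 ratio of 0.33 (9 above 0, the lowest at -0.90) and the 17 longer ones -0.10 (8 above 0, the highest at 0.90). Over all genes tested with a principal transcript, the medians were 0.19 for 1939 short and -0.02 for 10152 longer genes. The split at 1500 bases was chosen after the values were seen. Polr2k, the shortest at 489 bases, went against it with -0.90, as did Polr2g at 890 bases with -0.20, Polr2l at 1650 bases with 0.90 and Polr2a at 6740 bases with 0.61. The highest ratios were 1.64 for Polr2f, 1.40 for Polr2e and 1.08 for Polr2i.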
